A study of Mus musculus with 6 samples.

Results

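The genes described here are 10 members of the YAP/TEAD pathway: the coactivator genes Yap1 and Wwtr1, the transcription factor genes Tead1, Tead2 and Tead3, the inhibitory kinase genes Lats1 and Lats2, and the target genes Ccn1, Ccn2 and Amotl2. They were taken by symbol from a table of 52249 genes, and all 10 were found. All 10 were also among the 10687 genes with enough counts to be tested. The libraries were made by 3′ mRNA sequencing of mouse intestinal organoids, epithelial cultures grown from gut tissue. In both groups Apc, a tumour suppressor gene that limits WNT signalling, had been knocked out. The first group, 3 libraries, had the Apc knockout alone and is called control. The second group, 3 libraries, had the Apc knockout together with overexpression of IGF2BP3, an RNA-binding protein, and is called OE. How Apc was deleted, which vector or promoter drove IGF2BP3, how many animals or organoid lines were used and whether libraries came from separate cultures are not given in the sources used here, so the p-values below measure only the spread between these libraries.

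YAP and TAZ, the products of Yap1 and Wwtr1, carry no DNA-binding domain of their own and act on genes through the TEAD factors. In the Hippo pathway, kinases upstream activate LATS kinases, which phosphorylate YAP and TAZ and keep them out of the nucleus or mark them for degradation. When this brake is released, YAP and TAZ enter the nucleus and switch on genes such as Ccn1 and Ccn2, along with negative regulators such as Lats2 and Amotl2. In the gut epithelium the pathway is known for its part in regeneration after injury and in growth after loss of Apc. Much of this control acts on the proteins, which transcript counts do not measure.

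Total counts ran from 2180116 to 2228078 in control and from 2310236 to 2519917 in OE libraries. Each group held a single count of Igf2bp3, in replicate 1 (1, 0 and 0 reads), under the floor of 3 counts, so the counts gave no check of the OE label, and directions below are given for libraries as labelled. The names of the control libraries and of the OE libraries form separate series, so library series and group cannot be told apart. On the first principal component of log2 CPM, with 55.6% of the variance, OE libraries spread from 16.38 to 43.23 and control libraries from -29.18 to -26.14. Of the epithelial markers, Epcam averaged 432 ± 1.36 CPM (control) and 455 ± 25.0 CPM (OE; SD, n = 3; CPM is the read count scaled to a common library size). Of the intestinal transcription factor genes, Cdx2 had 11, 27 and 27 reads (control) and 36, 30 and 30 reads (OE), while Cdx1 had 0 in all 6 libraries. The epithelial markers were not all level. Of the 7 tested, 4 were higher in OE libraries (Vil1, Krt8, Krt18 and Krt19), against 16.5% of all tested genes, as described below.

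Of the 10 members, 6 fell (Wwtr1, Tead1, Lats1, Lats2, Ccn1 and Ccn2), 0 rose and 4 did not pass the test (edgeR quasi-likelihood test, Benjamini-Hochberg adjusted p below 0.05 over all tested genes). Across all 10687 tested genes, 29.2% passed, 12.7% as lower and 16.5% as higher in OE libraries. The median log2 fold change of the members was -0.67, against 0.04 for all tested genes. The members were chosen with earlier results of these data known, so their contrast with all genes is a description and not a test. For 7 of the 10 members the OE values lay wholly on one side of the control values, 6 lower and Tead2 higher. Such a separation was found for 45.7% of all tested genes, 20.5% with OE lower and 25.3% with OE higher. Without control replicate 1, or without control replicate 3, the members called fell to 2 in each case, Tead1 and Lats2, and without control replicate 2 they were 4. The number of members called was 4 without OE replicate 2 and 6 without OE replicate 1 or OE replicate 3. Calls over all genes changed in the same fits, from 3118 of 10687 tested genes in the main fit. They were 1893 of 10945, 1837 of 10965 and 1748 of 10966 without control replicate 1, 2 or 3. Without OE replicate 1, 2 or 3 they were 3345 of 10876, 2299 of 10869 and 3532 of 10838.

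**Figure D1:**
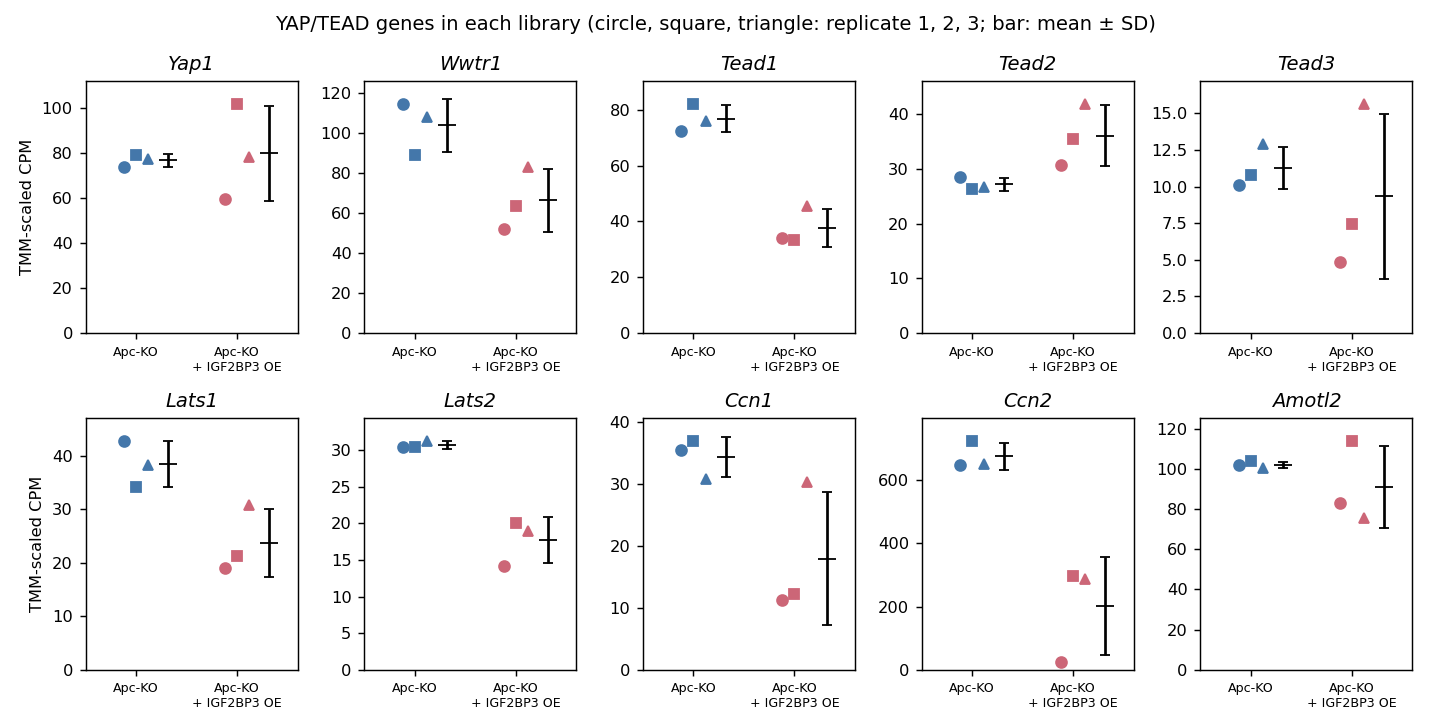
Expression of the 10 genes in each library, in TMM-scaled CPM on linear axes that start at 0, with control libraries in blue, OE libraries in red and black bars for the mean ± SD. Tead1, Lats2, Wwtr1, Lats1 and Ccn2 lie lower in all OE libraries than in any control library, and Ccn2 is at 23.1 CPM in OE replicate 1 against 297 and 287 CPM in the other two.

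The coactivator genes were read first. Wwtr1, which encodes TAZ, was counted at 115, 89.1 and 108 CPM in control libraries and at 52.3, 63.7 and 83.3 CPM in OE libraries, in replicate order. Every OE library lay under the lowest control library, although OE replicate 3 came close to control replicate 2. On the log2 scale the change was -0.65 (SE 0.17; adjusted p = 0.0119, edgeR). Wwtr1 lies on the minus strand of chromosome 3, 57455649 to 57575910 in GRCm38, and its longest annotated transcript has 43.9% GC. With an offset for GC content the change was -0.45 and no longer passed (edgeR adjusted p = 0.0573), and the call was also lost without control replicate 1 (-0.58, adjusted p = 0.0662) and without control replicate 3 (-0.62, adjusted p = 0.0569).

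Yap1, which encodes YAP, was counted at 73.7, 79.3 and 77.4 CPM in control libraries and at 59.6, 102 and 78.2 CPM in OE libraries. The control values fell inside the OE range, with OE replicate 1 under them and OE replicate 2 above them. The change on the log2 scale was 0.06 (SE 0.17; adjusted p = 0.828, edgeR), and its sign changed with the processing, to -0.19 without OE replicate 2. Yap1 lies on the minus strand of chromosome 9, 7931999 to 8004596 in GRCm38.

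Because a ratio of 2 genes within 1 library does not depend on how libraries are scaled, the share of Yap1 in the summed counts of Yap1 and Wwtr1 was also taken. It was 39.1%, 47.1% and 41.7% in control libraries and 53.3%, 61.5% and 48.4% in OE libraries. All OE shares were above all control shares, but the gap between control replicate 2 and OE replicate 3 was within the exact 95% binomial intervals of both (41.8% to 52.4% and 43.3% to 53.6%). The means were 42.6% ± 4.06 and 54.4% ± 6.62 (SD, n = 3; exact two-sided permutation p = 0.1, the smallest that 3 against 3 libraries can give; adjusted p = 0.167 over 5 shares). Binomial intervals here and below cover counting error only.

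The TEAD factors, which carry the DNA-binding domain, split by family member. Tead1 was counted at 72.4, 82.1 and 76.0 CPM in control libraries and at 34.0, 33.4 and 45.7 CPM in OE libraries. The groups were far apart compared with their spread. The log2 fold change of Tead1 was -1.03 (SE 0.15; adjusted p = 0.000517, edgeR), it passed in all 21 alternatives, and it ran from -1.18 to -0.90 across them. Tead1 lies on the plus strand of chromosome 7, 112679318 to 112906807 in GRCm38, and overlaps a miRNA gene on its own strand with 0 counts in all 6 libraries and a long non-coding RNA gene on the other strand with at most 2 counts.

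Tead2 was counted at 28.6, 26.3 and 26.7 CPM in control libraries and at 30.8, 35.4 and 41.9 CPM in OE libraries. All OE values were above all control values, by a small step for OE replicate 1. Its log2 fold change was 0.40 (SE 0.17) and did not pass (edgeR adjusted p = 0.0887, with a range from 0.05 to 0.538 over the alternatives). Tead3 was counted at 10.1, 10.8 and 12.9 CPM in control and at 4.86, 7.47 and 15.6 CPM in OE libraries, which lay on both sides of the control values. Its log2 fold change was -0.28 (SE 0.36; adjusted p = 0.586, edgeR). Its counts ran from 12 to 37, and its coefficient of variation among OE libraries was 60.3%, against 21% from counting error alone. Tead4, the remaining factor of the family, averaged 14.7 ± 4.93 CPM (control) and 11.7 ± 2.44 CPM (OE; SD, n = 3). Its log2 difference was -0.33 (SE 0.28; adjusted p = 0.396, edgeR).

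Within each library, Tead1 gave 65.1%, 68.9% and 65.7% of the summed counts of Tead1, Tead2 and Tead3 in control and 48.8%, 43.8% and 44.3% in OE libraries. The exact 95% binomial intervals of control (58.8% to 74.5% at the extremes) and OE libraries (36.7% to 56.6% at the extremes) did not meet. Tead2 gave 25.7%, 22.0% and 23.1% in control and 44.2%, 46.4% and 40.6% in OE libraries, so that the shares of Tead1 and Tead2, wide apart in control, were close in OE libraries. The means were 66.6% ± 2.02 against 45.6% ± 2.78 for Tead1 and 23.6% ± 1.89 against 43.7% ± 2.94 for Tead2 (SD, n = 3; exact two-sided permutation p = 0.1 for each, adjusted p = 0.167 over 5 shares). The share of Tead3 was 9.78% ± 1.19 in control and 10.6% ± 4.16 in OE libraries (SD, n = 3; exact permutation p = 0.8, adjusted p = 0.8). The 3 shares add to the whole of these genes, with Tead4 left out, so a fall of one implies a rise among the others. The longest transcripts of Tead1 and Tead2 have 46.5% and 57.9% GC, and the shares carry no GC offset. With that offset the log2 fold changes were -0.90 for Tead1 (edgeR adjusted p = 0.00112) and 0.18 for Tead2 (adjusted p = 0.505).

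**Figure D2:**
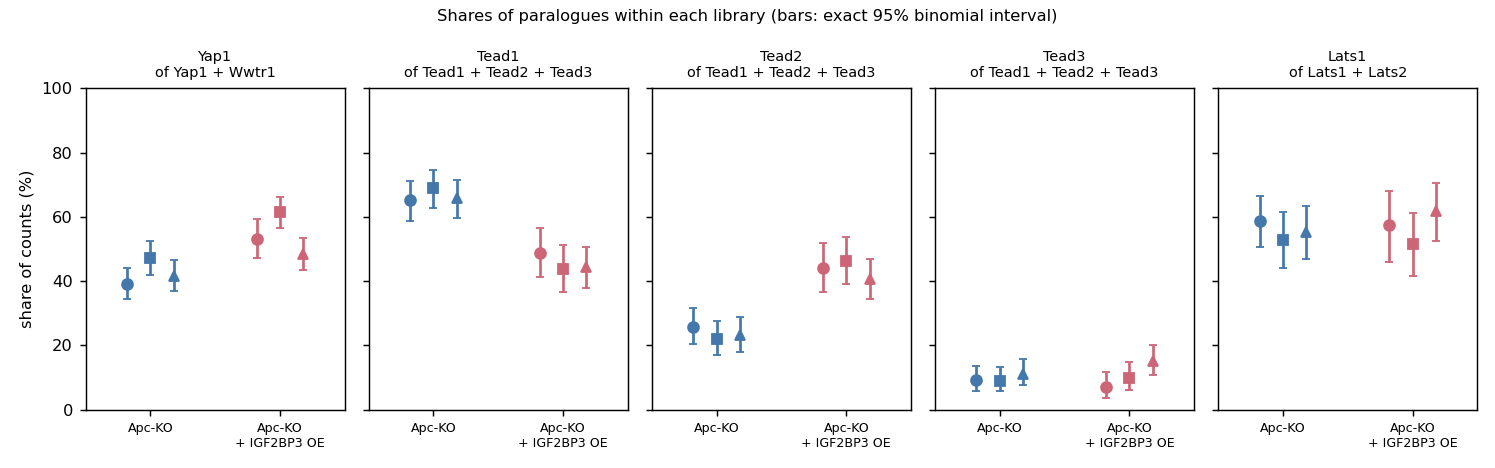
Share of counts, in percent, that each gene takes of the summed counts of the genes named above its panel in each library, with exact 95% binomial intervals, control libraries in blue and OE libraries in red (circle, square and triangle for replicates 1, 2 and 3). The Tead1 share lies between 65.1% and 68.9% in control and between 43.8% and 48.8% in OE libraries, while the Lats1 share overlaps between groups.

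The LATS kinases, which phosphorylate YAP and TAZ, were both lower in OE libraries. Lats1 was counted at 42.9, 34.2 and 38.2 CPM in control libraries and at 19.0, 21.2 and 30.9 CPM in OE libraries. The groups did not overlap, with OE replicate 3 nearest to the controls. The log2 fold change of Lats1 was -0.70 (SE 0.20; adjusted p = 0.0189, edgeR). The longest Lats1 transcript has 43% GC, and with the GC offset the change was -0.48 and did not pass (edgeR adjusted p = 0.0846; -0.48 and 0.079 with the replicate block added). The call was also lost without control replicate 1 (-0.62, adjusted p = 0.0878), control replicate 3 (-0.70, adjusted p = 0.0636) or OE replicate 2 (-0.66, adjusted p = 0.0574).

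Lats2, itself a gene that YAP and TEAD induce, was counted at 30.4, 30.5 and 31.3 CPM in control libraries and at 14.2, 20.1 and 19.0 CPM in OE libraries. Control libraries were nearly level, closer together than counting error alone would give, and all OE libraries lay well under them. In log2 units the difference was -0.79 (SE 0.19; adjusted p = 0.00753, edgeR), from -0.92 to -0.71 over 21 alternatives, all of which passed. Lats2 lies on the minus strand of chromosome 14, 57689662 to 57758388 in GRCm38. It overlaps the protein-coding model Gm49361 on the same strand, which had 1 to 3 counts per library, and 2 of its own 6 values were fractional, so a small part of its reads may be shared. The share of Lats1 in the summed Lats1 and Lats2 counts was 55.6% ± 2.91 in control and 56.9% ± 5.23 in OE libraries (SD, n = 3; exact permutation p = 0.8, adjusted p = 0.8).

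The target genes gave the widest range. Ccn2, which encodes the secreted matrix-associated protein CTGF and is a standard readout of YAP activity, was counted at 1408, 1547 and 1415 reads in control libraries and at 57, 755 and 679 reads in OE libraries. These counts correspond to 649, 726 and 652 CPM in control and 23.1, 297 and 287 CPM in OE libraries. All OE libraries lay far under the controls, and OE replicate 1 stood apart from OE replicates 2 and 3. Control libraries averaged 676 ± 43.5 CPM and OE libraries 202 ± 155 CPM (SD, n = 3). Ccn2 thus fell by 1.74 on the log2 scale (SE 0.53; adjusted p = 0.0266, edgeR). Without OE replicate 1 the change was -1.27 (edgeR adjusted p = 6.03e-09), so the fall did not rest on that library. The call was lost with the DESeq2 test (-1.79, adjusted p = 0.165). It was also lost without control replicate 1 (-1.77, edgeR adjusted p = 0.0753), control replicate 2 (-1.69, adjusted p = 0.085) or control replicate 3 (-1.77, adjusted p = 0.0766). In each of these fits OE replicate 1 was kept.

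The highest OE value of Ccn2 was 12.9 times the lowest. Among 4071 tested genes with a mean of at least 100 counts, the median of this ratio was 1.26, and only 1 other gene, the gene model Gm21987, had a ratio as large (14.4, chosen after its values were seen). In control libraries the highest Ccn2 value was 1.12 times the lowest. Ccn2 lies on the plus strand of chromosome 10, 24595442 to 24598683 in GRCm38, and the gene on its opposite strand had 1 to 4 counts per library.

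Ccn1, which encodes the related secreted protein CYR61, was counted at 35.5, 37.1 and 30.9 CPM in control libraries and at 11.3, 12.2 and 30.4 CPM in OE libraries. OE replicates 1 and 2 were low, whereas OE replicate 3 was within 1 CPM of the lowest control library. The fitted log2 difference was -0.95 (SE 0.30; adjusted p = 0.0324, edgeR). It was -1.54 without OE replicate 3 (adjusted p = 0.000206) and -0.76 without OE replicate 2, where it did not pass (adjusted p = 0.109). The call was also lost without control replicate 1 (-0.93, adjusted p = 0.0993), control replicate 2 (-0.89, adjusted p = 0.109) or control replicate 3 (-1.02, adjusted p = 0.0714). OE replicate 1 was the lowest library for both CCN genes, whereas OE replicate 2 was low for Ccn1 and close to OE replicate 3 for Ccn2.

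Amotl2, a YAP target whose protein, an angiomotin, binds and restrains YAP, was counted at 102, 104 and 100.4 CPM in control libraries and at 83.1, 114 and 75.7 CPM in OE libraries. OE values lay on both sides of the controls. On the log2 scale the change was -0.16 (SE 0.15; adjusted p = 0.434, edgeR), and no alternative passed.

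Promoter sequences of 8 of the 10 genes were found in RefSeq windows of 300 bases around start sites (GRCm38.p6; 250 bases before and 50 after). They were searched for GGAATG, the core of the motif bound by TEAD factors, on both strands (its reverse complement is CATTCC). The motif was present in at least 1 window of 6 of the 8 genes: Yap1, Wwtr1, Tead3, Lats2, Ccn1 and Amotl2. It was present for 16.6% of the 27025 genes with a window and in 14.7% of the 32851 windows. Tead2 and Lats1 held no match in their windows, and Tead1 and Ccn2 had no window and were not searched. The upstream stretches of the target genes Ccn1 and Amotl2 and of the 2 coactivator genes follow. They set the positions of the motif side by side. Each reads 5′ to 3′ on the strand of the gene, with the motif in capitals.
Ccn1, chr3:145649986-145650235, minus strand: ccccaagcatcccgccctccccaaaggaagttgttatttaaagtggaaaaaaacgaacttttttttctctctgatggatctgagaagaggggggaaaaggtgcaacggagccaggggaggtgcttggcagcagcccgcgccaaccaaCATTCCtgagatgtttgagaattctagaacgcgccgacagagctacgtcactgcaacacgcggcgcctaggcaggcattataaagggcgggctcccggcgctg
Amotl2, chr9:102717554-102717803, plus strand: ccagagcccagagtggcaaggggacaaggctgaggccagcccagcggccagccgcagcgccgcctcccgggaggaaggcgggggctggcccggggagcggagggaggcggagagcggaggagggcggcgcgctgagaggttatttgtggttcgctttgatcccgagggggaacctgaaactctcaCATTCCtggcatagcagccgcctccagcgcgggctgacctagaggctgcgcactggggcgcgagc
Wwtr1, chr3:57575911-57576160, minus strand: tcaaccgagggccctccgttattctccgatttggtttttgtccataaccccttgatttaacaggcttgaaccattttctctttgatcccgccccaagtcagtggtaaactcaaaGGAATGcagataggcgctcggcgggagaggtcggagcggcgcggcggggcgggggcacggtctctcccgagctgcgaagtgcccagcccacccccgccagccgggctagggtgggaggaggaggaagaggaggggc
Yap1, chr9:8004597-8004846, minus strand: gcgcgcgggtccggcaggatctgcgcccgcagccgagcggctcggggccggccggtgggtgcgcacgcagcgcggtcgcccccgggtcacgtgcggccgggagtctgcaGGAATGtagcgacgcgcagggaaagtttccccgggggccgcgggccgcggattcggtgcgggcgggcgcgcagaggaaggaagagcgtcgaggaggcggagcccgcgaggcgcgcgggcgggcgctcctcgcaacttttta

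The motif began 103 bases before the start site in Ccn1 and 65 bases before it in Amotl2, on the reverse strand in both. In Wwtr1 it began 136 and in Yap1 141 bases before the start site, on the strand of the gene. Wwtr1 had 2 windows, and the same match lay 170 bases before the start site of the other window. In Lats2 it began at base 5 of the transcribed part of 1 of its 2 windows, shown here as a site of 30 bases.
Lats2, chr14:57746102-57746131, minus strand: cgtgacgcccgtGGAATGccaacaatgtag
Genes with the motif in these windows included some that fell (Wwtr1, Lats2, Ccn1) and some that did not pass the test (Yap1, Tead3, Amotl2). Of the searched genes without the motif, Lats1 fell and Tead2 did not pass. With only 8 genes searched, a relation between the motif and the change was not tested. The search did not cover Tead1 and Ccn2, which had the lowest log2 fold changes of the members (-1.03 and -1.74). A match is a stretch of letters and was not measured as a bound site.

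The members were also read library by library. Against the control range of each gene, OE replicate 1 was below it for 9 of 10 members and above it for 1, OE replicate 2 was below it for 7 and above it for 3, and OE replicate 3 was below it for 7, within it for 1 and above it for 2. Over all tested genes 39.8%, 34.3% and 33.1% of values were below the control range in OE replicates 1, 2 and 3, and 40%, 42.1% and 43% above it. The coefficient of variation among OE libraries was 76.8% for Ccn2, 60% for Ccn1 and 60.3% for Tead3, and it lay between 15.4% and 26.5% for the other 7 members. Among control libraries it ran from 1.59% (Amotl2) to 12.8% (Wwtr1 and Tead3). For Yap1, Tead1, Tead2, Tead3, Lats2, Ccn1 and Amotl2 the control value was below that from counting error alone (Lats2, 1.6% against 12.3%). For Wwtr1, Lats1 and Ccn2 it was above (Ccn2, 6.44% against 2.62%). Whether the control libraries came from separate cultures is not given.

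**Figure D3:**
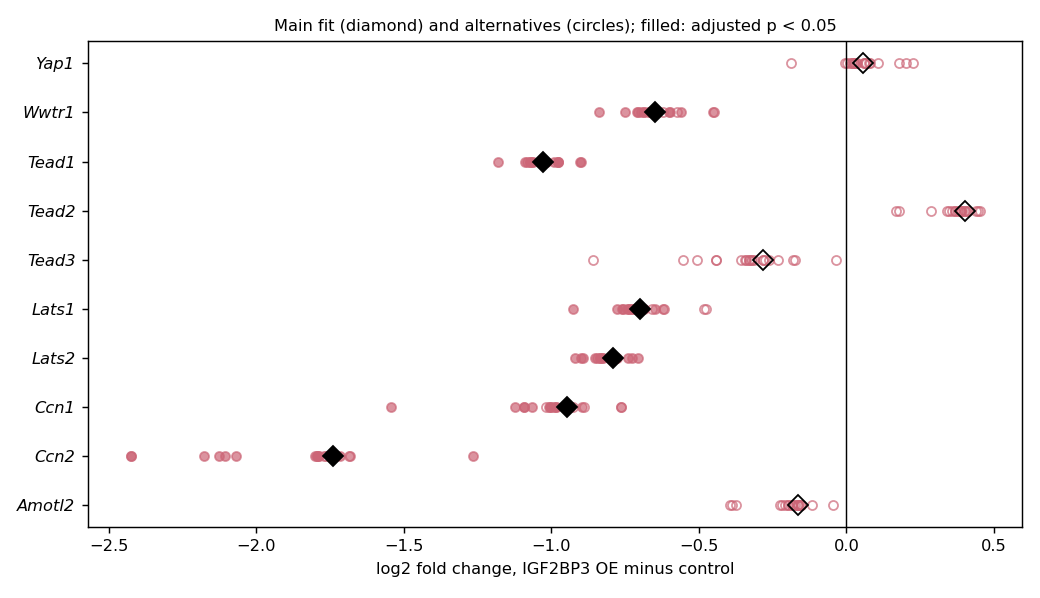
Log2 fold change of OE against control for each gene under the main fit (diamond) and 21 alternatives (circles), filled where the adjusted p was below 0.05. All marks of Tead1 and Lats2 are filled and lie left of 0, Ccn2 ranges from -2.43 to -1.27, and Yap1 lies on both sides of 0.

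The rest of the pathway was taken from 3 lists, also chosen with earlier results of these data known. Among Hippo kinases and upstream inhibitors, 17 of 19 listed genes were tested, of which 4 fell, 0 rose and 13 did not pass, with a median log2 fold change of -0.16. Over all tested genes 12.7% fell, 16.5% rose and 29.2% passed in either direction. The genes that fell were Taok1, a kinase that acts upstream of the core (-0.65, SE 0.10, edgeR adjusted p = 0.000728), Mob1a, the LATS coactivator (-0.60, SE 0.12, adjusted p = 0.00305), Nf2, which encodes the scaffold merlin (-0.58, SE 0.15, adjusted p = 0.0138), and Amotl1, a relative of Amotl2 (-0.39, SE 0.12, adjusted p = 0.033). Taok1 was counted at 366, 342 and 347 CPM in control and 235, 206 and 230 CPM in OE libraries, and Mob1a at 94.0, 92.9 and 86.2 CPM and 56.7, 58.2 and 64.7 CPM. Both were lower in every OE library and passed in all 21 alternatives. With the GC offset the changes were smaller, at -0.37 for Taok1 (edgeR adjusted p = 0.0232) and -0.39 for Mob1a (adjusted p = 0.0296). Nf2 was not called without control replicate 1 or control replicate 2 (adjusted p up to 0.0718), and Amotl1 was not called with DESeq2 or in 5 of the 6 fits that left out a library, all but that without OE replicate 1 (adjusted p up to 0.139).

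The core kinase genes upstream of LATS did not pass. Stk3 had a log2 fold change of -0.16 (SE 0.23; adjusted p = 0.635, edgeR) and Stk4 of -0.13 (SE 0.13, adjusted p = 0.476). Sav1, the scaffold of these kinases, had -0.57 (SE 0.26, adjusted p = 0.11), with no overlap of the groups (20.3, 22.0 and 22.1 CPM against 8.91, 14.6 and 19.9 CPM). Mob1b, the paralogue of Mob1a, had -0.09 (SE 0.24, adjusted p = 0.806). Of the atypical cadherin genes of the list, Fat4 and Dchs1 had 0 counts in all 6 libraries, and Fat1 was counted in each (36 to 158 reads) and did not pass.

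Among LIM-domain Hippo inhibitors and TEAD cofactors, 5 of 8 listed genes were tested, of which 2 rose, 0 fell and 3 did not pass (16.5% of all tested genes rose and 29.2% passed in either direction), with a median log2 fold change of -0.18. The genes that rose encode LIM proteins that hold back LATS kinases. Ajuba was counted at 69.1, 82.1 and 75.6 CPM in control and 153, 115 and 94.7 CPM in OE libraries. Its log2 difference was 0.68 (SE 0.16, edgeR adjusted p = 0.00892). The gene was not called without control replicate 1 (adjusted p = 0.057), and with the GC offset the difference was 0.43 (adjusted p = 0.0498). Wtip rose by 0.43 (SE 0.13, adjusted p = 0.0242), a call lost in 8 of 21 alternatives, DESeq2, the GC offset and every fit without a control library among them (adjusted p up to 0.537). Vgll4, a competitor of YAP for TEAD, had -0.27 (SE 0.13, adjusted p = 0.143).

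Among other YAP/TEAD targets, 14 of 17 listed genes were tested, of which 5 fell, 2 rose and 7 did not pass (over all tested genes 12.7% fell, 16.5% rose and 29.2% passed), with a median log2 fold change of -0.37. Igfbp3, a secreted binder of insulin-like growth factors, was counted at 50.7, 55.8 and 54.4 CPM in control and 6.48, 26.3 and 33.0 CPM in OE libraries. As with Ccn2, OE replicate 1 was the lowest by a wide margin. The log2 fold change of Igfbp3 was -1.29 (SE 0.34; adjusted p = 0.0138, edgeR), and the call was lost with DESeq2 and without control replicate 2 or control replicate 3 (adjusted p up to 0.103). Ankrd1, a classical YAP target, was counted at 1374, 1342 and 1395 CPM in control and 943, 1186 and 1124 CPM in OE libraries. Its change was small beside that of Ccn2, at -0.34 (SE 0.10; adjusted p = 0.0256, edgeR), and was lost with the GC offset and without any one control library (adjusted p up to 0.111).

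The other targets that fell were Crim1, a membrane-bound regulator of growth factors (-0.48, SE 0.11, edgeR adjusted p = 0.00572), Myof, which encodes myoferlin (-0.46, SE 0.11, adjusted p = 0.00819), and Tgfb2, a TGF-beta ligand gene (-0.45, SE 0.12, adjusted p = 0.0142). Crim1 and Myof passed in all 21 alternatives, whereas Tgfb2 was lost with the GC offset and without control replicate 2 or control replicate 3 (adjusted p up to 0.073). The targets that rose were Arhgef17 (0.44, SE 0.15, adjusted p = 0.0441), and Rbms3, an RNA-binding protein gene (0.35, SE 0.11, adjusted p = 0.034). These calls were lost in 12 and 10 of 21 alternatives, in each case with DESeq2, with DESeq2 size factors in edgeR and without any one control library, as well as without OE replicate 1 or OE replicate 2 (adjusted p up to 0.308 and 0.158).

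**Figure D4:**
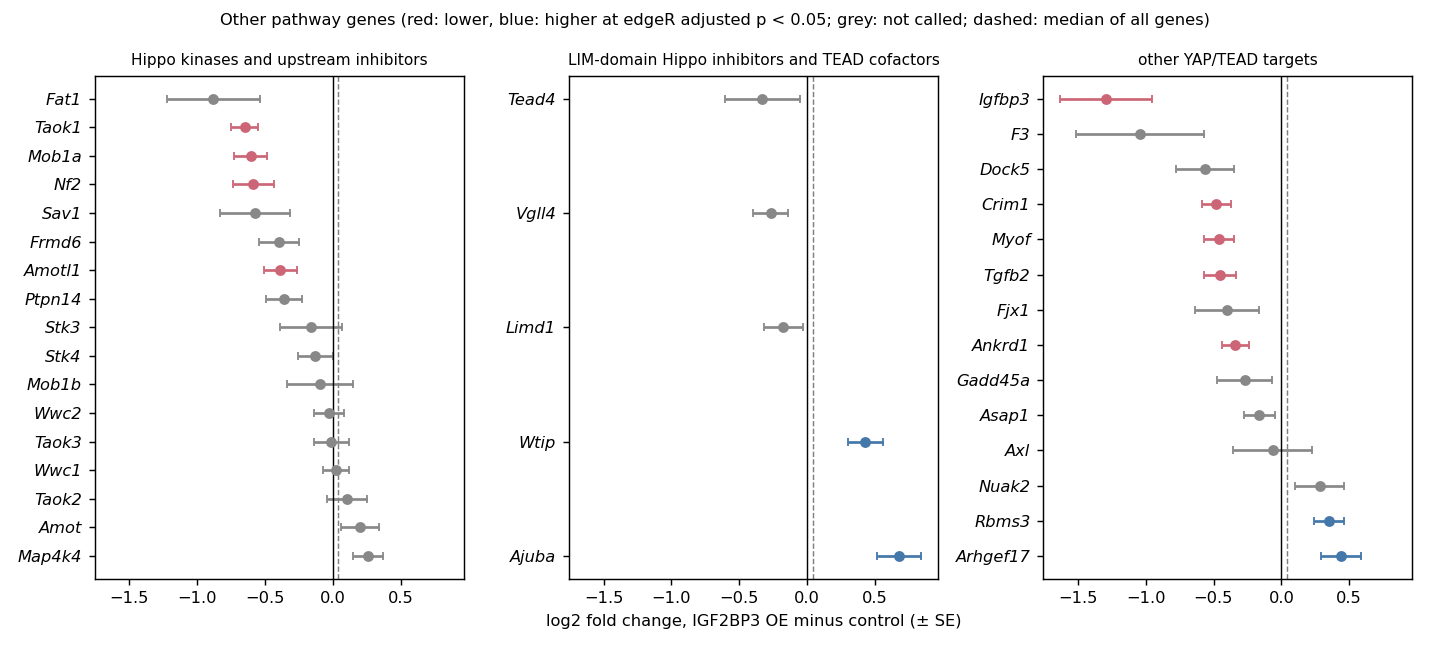
Log2 fold change of OE against control with its SE for the tested genes of the 3 other pathway lists (red lower, blue higher, grey not called; dashed line at the median of all tested genes, 0.04). In the list of targets Igfbp3 lies lowest at -1.29, and Ajuba lies highest of all at 0.68.

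Since Ccn1 and Ccn2 are also strongly expressed by mesenchymal and endothelial cells, markers of other cell types were read beside them. The 9 fibroblast and mesenchyme markers summed to between 0.922 and 3.28 CPM in control and between 0.846 and 1.97 CPM in OE libraries, with Col1a2, Col3a1, Dcn, Lum and Pdgfrb at 0 counts in all 6. The 4 endothelial markers summed to at most 1 count and the 5 immune markers to at most 5 counts in any library. The Ccn2 counts in these libraries were recorded with these markers at or near 0. Which cells the Ccn1 and Ccn2 counts came from was not tested. The 8 epithelial markers summed to between 3948 and 4172 CPM in control and between 5325 and 6025 CPM in OE libraries. Of these, 4 rose (Vil1, Krt8, Krt18 and Krt19) and 0 fell among 7 tested, against 16.5% higher and 12.7% lower over all tested genes, with Krt18 at 1179 ± 20.9 and 2229 ± 188 CPM (SD, n = 3; log2 fold change 0.92, SE 0.09, edgeR adjusted p = 7.22e-05). The part of this difference in the changes of the pathway genes was not tested, and in bulk libraries fewer cells of a type and less RNA per cell cannot be told apart.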

How the data were processed

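The authors deposited estimated counts per Ensembl gene, 1 column per library, not normalized. Of the values, 2843 were fractional, 2352 of them with a fractional part of 0.5, and they were rounded for the count tests. STAR and HTSeq and the builds mm10 and GRCm38 are named in the submitters' processing notes; annotation, strand and the treatment of multi-mapping reads are not given in the sources used here. Libraries were made from 500 ng of RNA with a 3′ kit, per the labels' protocols, so counts are not divided by gene length.

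Groups and replicate numbers came from the sample titles, and columns were matched through the library names. OE was compared with control with edgeR 4.0.16 (R 4.3.3; filterByExpr, TMM, quasi-likelihood test), with p-values adjusted over 10687 genes. The SE is the estimate divided by the root of the F statistic. CPM uses the effective library size of genes kept, and 3 counts lay between 1.18 and 1.41 CPM. Positions, GC and overlaps came from GENCODE M21, which held 51989 of the identifiers (99.5%). The 21 alternatives were DESeq2 1.42.0, limma-voom (3.58.1) without and with a variance per group, unrounded counts, other scalings and filters, and equal depth. The others were a GC offset and the replicate block (alone and together), gene subsets and each library left out. The fit was tested on simulated counts. Named were the 10 members, Igf2bp3, 9 pathway genes in any case and all other listed genes with adjusted p below 0.05; members and lists were chosen with earlier results of these data known. Shares were tested by exact permutation.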

Additional observations from a re-analysis of the deposited data

How the results depend on the processing

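Of 210 alternative values of the 10 members, 192 stayed on their side of 0 and of the threshold, 16 fell short of it and 2, both of Yap1, changed sign (-0.0036 with protein-coding genes only, and -0.19 without OE replicate 2; leaving out single libraries gave -0.19 to 0.18). Of 399 values of 19 other named genes, 338 kept both, 51 no longer passed, 4 newly passed and 6 changed sign, all of genes that were not called: Mob1b was 0.24 both with the GC offset alone and with the replicate block and GC offset, and leaving out single libraries gave -0.32 to 0.16, and Stk3 became 0.17 with the GC offset and 0.16 with the block and GC offset.

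DESeq2's test called 1994 of the 18991 genes it was given and 8 of the pathway list genes. With edgeR these were 3118 of 10687 genes and 13. Leaving out single libraries gave 1748 to 3532 genes, with 10838 to 10966 genes tested, and 2 to 6 members (all lower), against 6. Pathway list genes called in these fits were 5 to 18, with 4 to 13 lower and 0 to 5 higher, against 9 lower and 4 higher. The 3 lowest gene counts, 1893, 1837 and 1748, were those with control replicate 1, 2 or 3 removed. Removing OE replicate 1, 2 or 3 instead takes away as many samples and gave 3345, 2299 and 3532 genes. Why the counts differed between these fits was not tested. The 4 higher genes became 1 with DESeq2 and 2 with DESeq2 size factors, no count filter, the GC offset alone, the replicate block with GC offset, protein-coding genes only or no mitochondrial genes.

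With the replicate block, 3112 of 10687 genes, 6 members and 16 pathway list genes passed, and no call of a named gene was lost. There Ccn2 had -2.13 (edgeR adjusted p = 0.00532). Equal replicate numbers correlated at 0.09, 0.02 and 0.06 in their deviations from the group means, and unequal ones at -0.11 to 0.04. For each OE library the control library of equal number gave the highest value. With 3 libraries per group, values this small cannot decide whether the libraries were paired. Across all alternatives the adjusted p ran from 2.01e-41 to 0.165 for Ccn2, from 5.98e-05 to 0.109 for Ccn1, from 0.000102 to 0.0662 for Wwtr1 and from 0.00197 to 0.0878 for Lats1. The low ends all came from the fit with no count filter. There the SE of Ccn2 was 0.127, against 0.529 in the main fit, although its OE libraries were far apart, so these low ends are not a measure of support. Counting error alone gave Tead3 a coefficient of variation of 20.3% in control and 21% in OE libraries, against 2.62% and 4.49% for Ccn2.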

Other observations

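Genes of the lists that did not pass the test included some with a wide spread among OE libraries, named here after their values were seen. Fat1, an atypical cadherin gene, was counted at 126, 147 and 158 reads (control) and 36, 77 and 152 reads (OE), with a log2 difference of -0.88 (SE 0.34; adjusted p = 0.071, edgeR). F3, which encodes tissue factor, was counted at 18, 21 and 25 reads (control) and 5, 6 and 24 reads (OE), with a log2 difference of -1.04 (SE 0.47; adjusted p = 0.113, edgeR). In both genes, as in Ccn1, OE replicate 3 lay inside or next to the control range while OE replicates 1 and 2 lay under it. Vgll3, a TEAD cofactor gene, had at most 4 counts per library, and Vgll1 and Vgll2 had 0 in all 6.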
